A study of Homo sapiens with 15 samples.

Results

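The joint effect of an oncogene and a hormone was measured by RNA sequencing in cells depleted of RSAD2. The comparison sets 12Z cells that carried PIK3CA H1047R and received insulin against 12Z cells with neither, all of them treated with siRNA against RSAD2. It sets 6 of the 15 libraries of the series against each other, 3 in each group, and takes the groups from their labels. All 15 libraries entered the fit. The control group received the RSAD2 siRNA, the pBabe control plasmid (empty vector) and vehicle, and its libraries are called vehicle 1 to 3. The treated group received the same siRNA, the PIK3CA*H1047R plasmid and 100 nM insulin for 24 h, and its libraries are called H1047R-insulin 1 to 3. Empty-vector cells given insulin and H1047R cells given vehicle, each with 3 libraries and the RSAD2 siRNA, give the single steps. Cells with a non-targeting siRNA are represented here by 3 libraries with empty vector and vehicle, and the joint effect without the knockdown was not analysed here. A change here is measured from the level in RSAD2-siRNA control cells, which for some genes differed from that with the non-targeting siRNA.

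The 12Z line is an immortalized epithelial line from an ectopic endometriotic lesion. The siRNA was a pool, the plasmid was introduced 24 h later by transient transfection, and serum was withdrawn for 4 h before insulin was added. A gene count cannot separate plasmid-borne PIK3CA from the endogenous transcript.

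PIK3CA encodes the catalytic p110 alpha subunit of phosphatidylinositol 3-kinase (PI3K), and H1047R is a substitution in its kinase domain that raises its activity. Insulin reaches the same kinase through its receptor and the IRS adaptors. The lipid product of PI3K recruits AKT, which holds FOXO transcription factors out of the nucleus and feeds the mTOR kinase, so oncogene and hormone meet in one pathway. RSAD2 encodes viperin, an antiviral enzyme that interferon induces.

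Gene counts totalled 26.3 to 29.3 M in the vehicle libraries and 17.2 to 33.6 M in the H1047R-insulin libraries. Vehicle 3 stood apart by its unmapped reads, 8.31% against 3.97 to 5.45% in the other 14 libraries, so the number of calls and the counts of most gene lists are also given without it. A further property separated both groups. In a reverse-stranded library few counts should fall on the forward strand of a gene, and their median share over 1237 genes without an opposite-strand neighbour was 0.201 to 0.241% in the vehicle libraries but 0.647 to 1.04% in the H1047R-insulin libraries. H1047R vehicle libraries had 0.721 to 0.789%, and the empty-vector insulin libraries 0.228, 0.112 and 0.692%. Within the 6 compared libraries this class and the treatment cannot be told apart. A fit with a term for the class was therefore added after the data were seen. In it the joint estimate is the insulin step among low-share libraries plus the H1047R step among high-share libraries, and the second rests on 1 empty-vector insulin library that is assumed to vary like the others. Every SE, adjusted p and call given below with the class term depends on that assumption.

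**Figure D1:**
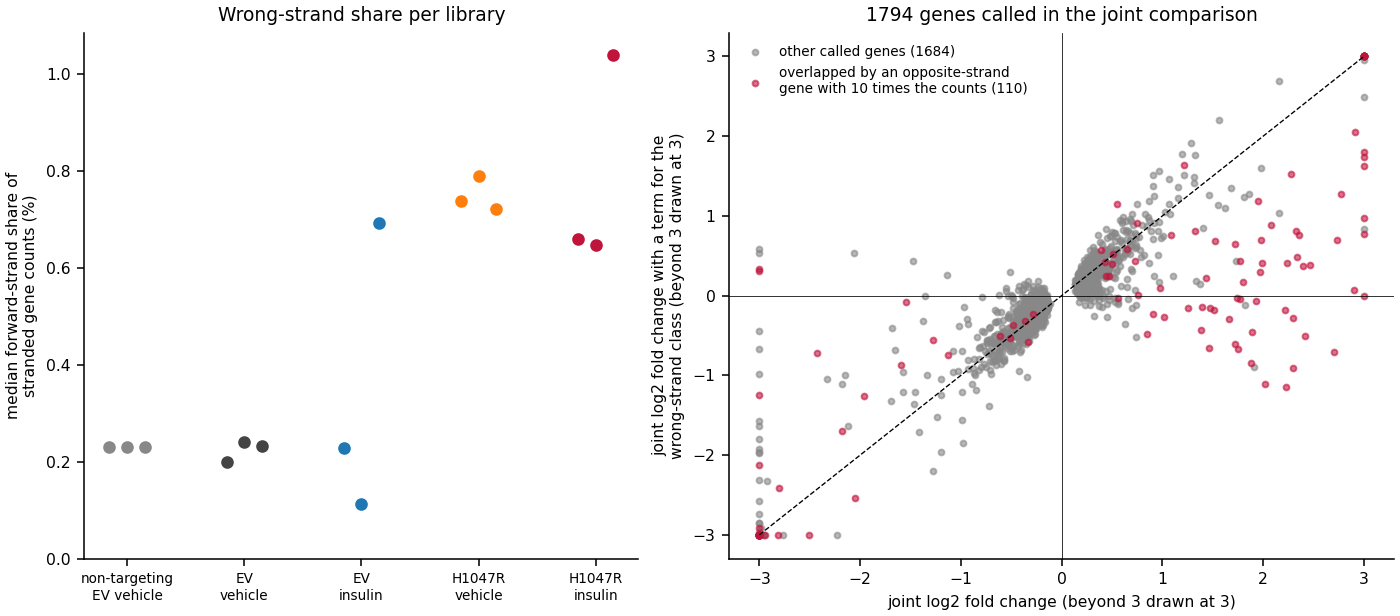
Left, median forward-strand share of the stranded counts (%, vertical axis) of each library by group, 1 point per library; EV is empty vector. Right, for the 1794 genes called in the joint comparison, the log2 fold change with a term for the wrong-strand class (vertical) against that without it (horizontal), with the line of equality. All 3 vehicle libraries lie below 0.5% and all 3 H1047R-insulin libraries above. Red points, 110 genes overlapped by a gene on the other strand with 10 times the counts or more, reach far below the line at the right; values beyond 3 are drawn at 3.

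H1047R with insulin changed 1794 of 23184 genes tested at an adjusted p of 0.05 (edgeR quasi-likelihood F test, Benjamini-Hochberg). Of these, 677 rose (2.92% of the genes tested) and 1117 fell (4.82%). Without vehicle 3, 510 rose (2.23%) and 909 fell (3.97%), and 1278 of the 1794 genes (71.2%) were called again in the same direction. Without H1047R-insulin 3 the call count was 975, with 312 higher and 663 lower. With the class term 47 were called higher (0.203%) and 102 lower (0.44%). There the standard errors were larger, by a median ratio of 1.86, and 93.4% of the 1794 genes kept their sign. Of the 104 called genes that the naming rule picked, 39 kept their call with this term, 60 lost it and 5 changed sign. The median log2 fold change over all genes tested was 0.0038. Bulk counts of this kind cannot tell apart fewer cells of a type and less RNA per cell.

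Most changes were small. A rise of at least 2-fold was found for 98 genes and a fall of that size for 127. Of the 98, 60 (61.2%) lie under a gene on the other strand with at least 10 times their counts, against 29 of the 127 (22.8%). Among all genes tested with a difference of that size, called or not, the share was 30.8% (1012 of 3281). Levels are given as CPM, counts scaled to library size with TMM factors, and in CPM the groups did not overlap for 98.8% of the genes called higher and 91.3% of those called lower, against 25.5% of all genes tested.

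PIK3CA (ENSG00000121879.5, hg38 chr3:179148114-179240093, plus strand) marked the plasmid. It stood at 92.1, 84.5 and 90.5 CPM in the vehicle libraries and at 164, 160 and 164 CPM in the H1047R-insulin libraries. The groups lie far apart, with a log2 fold change of 0.87 ± 0.05 (SE; edgeR adjusted p = 8.5e-13). H1047R cells without insulin had more, 212, 199 and 223 CPM. RSAD2 (ENSG00000134321.12) was at 0.691, 0.0769 and 0.208 CPM in vehicle cells and at 0.823, 0.787 and 0.9 CPM in H1047R-insulin cells. These levels do not overlap and all lie below the 3.29 ± 0.36 CPM (SD, n = 3) of cells with the non-targeting siRNA. The difference of 1.33 ± 0.47 log2 units did not pass (edgeR adjusted p = 0.084).

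**Figure D2:**
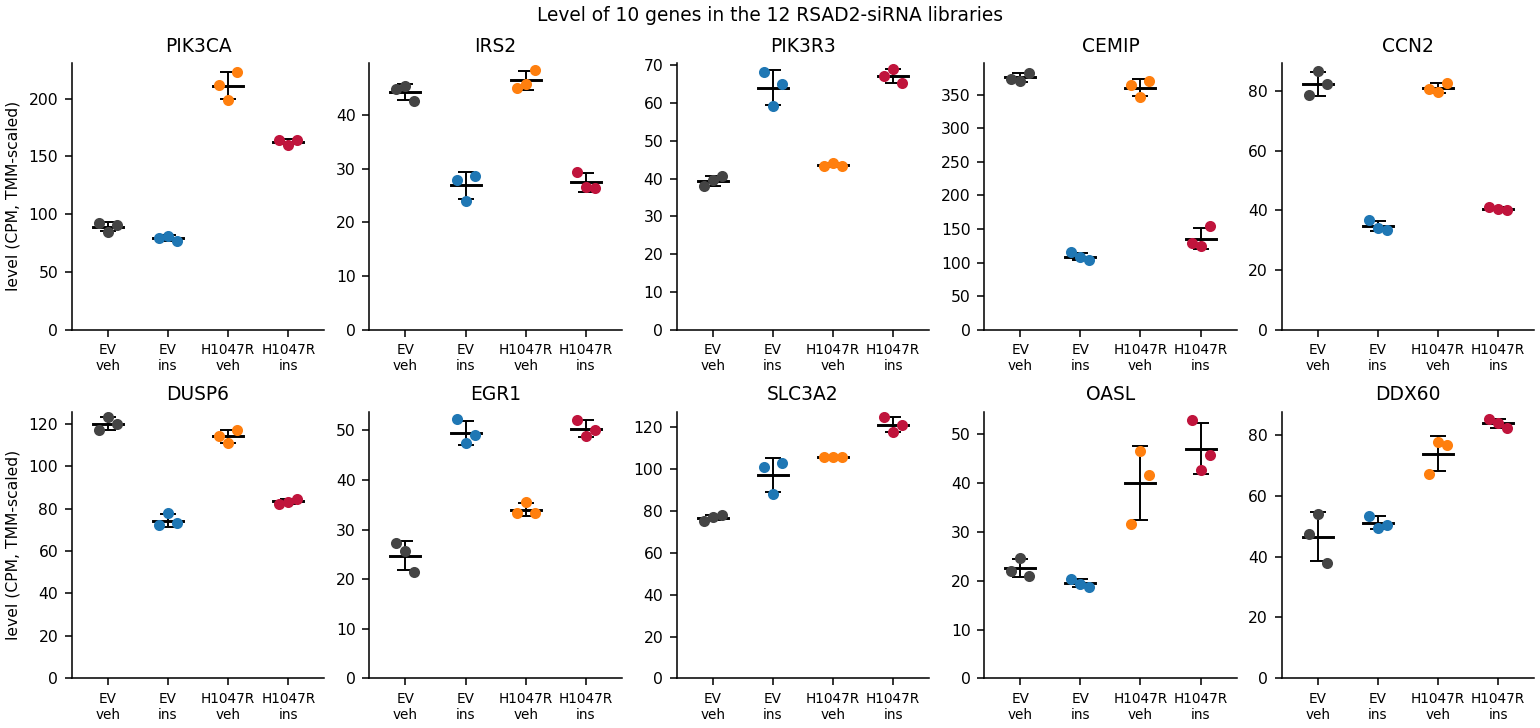
Level (TMM-scaled CPM, vertical axes from 0) of 10 genes in the 12 libraries with RSAD2 siRNA; points are libraries, thick bars the mean and whiskers the SD of 3 libraries, EV is empty vector, veh vehicle and ins insulin. CEMIP, CCN2, IRS2 and DUSP6 are low wherever insulin was given, OASL and DDX60 are high wherever H1047R was given, and SLC3A2 is highest with both.

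Genes of the PI3K and insulin pathway itself changed in both directions. Of 49 measured members 5 rose (10.2%, against 2.92% of all genes tested) and 12 fell (24.5%, against 4.82%). The median log2 fold change was -0.06. Without vehicle 3 the counts were 5 and 10, without H1047R-insulin 2 they were 5 and 7, and with the class term 3 and 3, which were PIK3CA, PIK3R3 and DDIT4 against IRS2, GAB2 and SGK1. Receptors and adaptors at the top of the pathway gave 5 of the 12 falls. Both receptors fell, INSR by 0.47 ± 0.07 and IGF1R by 0.44 ± 0.05 (edgeR adjusted p = 2.3e-05 and 7.8e-07).

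IRS2, the adaptor that links the insulin receptor to PI3K, stood at 44.9, 45.3 and 42.5 CPM in vehicle cells and at 29.4, 26.6 and 26.3 CPM in H1047R-insulin cells. No library of one group reached the other. Cells with the non-targeting siRNA, empty vector and vehicle had 41.4 ± 0.28 CPM (SD, n = 3). IRS2 fell by 0.69 ± 0.07 (edgeR adjusted p = 2.3e-08), and by 0.84 ± 0.13 with the class term (adjusted p = 0.00035). GAB2, another docking protein, went from 14.5, 15.7 and 15.3 CPM to 10, 7.93 and 8.27 CPM, a fall of 0.80 ± 0.10 (edgeR adjusted p = 1.6e-06). IRS1 fell less, by 0.22 ± 0.06 (edgeR adjusted p = 0.016). Against these falls, GRB10, an adaptor that restrains the insulin receptor, rose by 0.41 ± 0.06 (edgeR adjusted p = 2.6e-05).

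Among PI3K subunits the regulatory subunit PIK3R3 rose from 38.1, 39.6 and 40.6 CPM to 67.2, 69 and 65.2 CPM. That rise of 0.77 ± 0.06 (edgeR adjusted p = 2.8e-10) was the largest in the list after the plasmid gene. The catalytic subunit PIK3CD fell by 0.25 ± 0.07 (edgeR adjusted p = 0.028) but was not called without vehicle 3 (adjusted p = 0.093). None of the 5 lipid phosphatases measured was called. Of the kinases downstream, SGK1 fell by 0.41 ± 0.05 and GSK3A by 0.34 ± 0.07. Of the negative regulators, DDIT4, an inhibitor of mTOR complex 1, rose by 0.48 ± 0.06 and TRIB3, an AKT-binding pseudokinase, by 0.44 ± 0.08 (edgeR adjusted p = 1.8e-06 and 0.00046).

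Genes that FOXO factors activate and insulin represses fell more often than they rose. The list of 34 measured genes holds 4 FOXO genes beside 30 targets. In it 12 fell (35.3%, against 4.82% of all genes tested) and 2 rose (5.88%, against 2.92%), with a median of -0.12. Without vehicle 3 the counts were 12 and 3. Of the 30 targets alone, 11 fell and 2 rose (median -0.09), with 11 and 3 without vehicle 3. With the class term 3 fell and 1 rose. One of the risers is PIK3CA, which the plasmid supplies. IRS2 and INSR belong to this list too. MXI1, an antagonist of MYC, fell by 0.60 ± 0.07, CCNG2, an atypical cyclin, by 0.43 ± 0.06, and the transcriptional regulator CITED2 by 0.40 ± 0.05 (edgeR adjusted p = 4.8e-07, 6.3e-06 and 6.9e-07). FOXO4 was the only 1 of the 4 FOXO genes called, with a fall of 0.41 ± 0.08 (edgeR adjusted p = 0.0014).

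Among immediate early, feedback and other target genes of the MAPK cascade 14 of 38 fell, 1 rose and 23 were not called (median -0.12). These are 36.8% lower and 2.63% higher, against 4.82% and 2.92% of all genes tested. The counts were the same without vehicle 3, and 6 and 1 with the class term, DUSP6, SPRY1, FOSL1, ETV4 and EGR1 among them. The feedback regulators had 7 of 12 lower and none higher, also without vehicle 3 and 3 with the class term, and the immediate early factors had 2 of 14 lower and 1 higher. DUSP6, the phosphatase that switches off ERK, stood at 117, 123 and 120 CPM in vehicle cells and at 82.3, 83 and 84.7 CPM in H1047R-insulin cells, a fall of 0.52 ± 0.05 (edgeR adjusted p = 1.8e-08). The Sprouty gene SPRY4 fell by 0.58 ± 0.06 and SPRY1 by 0.62 ± 0.08. FOSL1, a subunit of the AP-1 factor, fell by 0.67 ± 0.06 (edgeR adjusted p = 7.6e-09), and the ETS factor ETV4 by 0.59 ± 0.07.

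EGR1 went the other way and was the member that rose. This zinc finger factor had 27.2, 25.6 and 21.5 CPM in vehicle cells against 52.1, 48.8 and 50.1 CPM in H1047R-insulin cells. Every treated library lay above every control, with a rise of 1.02 ± 0.07 (edgeR adjusted p = 3.3e-11). Insulin alone gave 52.2, 47.4 and 49 CPM and H1047R alone 33.3, 35.5 and 33.3 CPM. Cells with the non-targeting siRNA, empty vector and vehicle had 61.2 ± 2.96 CPM (SD, n = 3).

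YAP and TEAD are effectors of the Hippo pathway, and a list of 24 of their targets and 6 factors was called in one direction. Of 30 measured, 13 fell (43.3%, against 4.82% of all genes tested) and none rose, with a median of -0.15. The counts without vehicle 3 were the same. Of the 24 targets alone, 11 fell (median -0.19). With the class term 4 fell, CCN2, ANKRD1 and CCN1 among them. CCN2, a matricellular growth factor, stood at 78.5, 86.6 and 82.2 CPM in vehicle cells and at 41, 40.3 and 40.2 CPM in H1047R-insulin cells. The treated libraries sit close together below every control, a fall of 1.02 ± 0.06 (edgeR adjusted p = 4.7e-13). CCN2 had 43.3 ± 2.95 CPM (SD, n = 3) in cells with the non-targeting siRNA, empty vector and vehicle. ANKRD1, a nuclear ankyrin repeat protein, fell from 9.16, 10.1 and 8.54 CPM to 4.02, 4.33 and 3.57 CPM, by 1.24 ± 0.15 (edgeR adjusted p = 1.1e-06). CCN1 fell by 0.49 ± 0.05 and the receptor kinase AXL by 0.34 ± 0.05. Of the factors themselves, WWTR1, which encodes TAZ, fell by 0.33 ± 0.05 and TEAD1 by 0.16 ± 0.05.

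The promoters of CCN2 and ANKRD1 are shown because these were the members with the largest falls in that list and both hold the TEAD motif. The 250 bases before the start of AXL, also looked up, hold none. The stretches come from RefSeq promoters of build GRCh38.p14, and capitals mark GGAATG, the TEAD motif, which was searched on both strands.
CCN2 (chr6:131951432-131951571, minus strand): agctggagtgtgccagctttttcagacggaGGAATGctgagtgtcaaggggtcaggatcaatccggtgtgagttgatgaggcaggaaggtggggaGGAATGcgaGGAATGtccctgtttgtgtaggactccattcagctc
ANKRD1 (chr10:90921180-90921337, minus strand): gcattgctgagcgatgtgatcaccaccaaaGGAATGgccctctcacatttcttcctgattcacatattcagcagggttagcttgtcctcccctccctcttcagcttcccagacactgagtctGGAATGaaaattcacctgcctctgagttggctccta
The motif stood in 8 of 23 promoters of the list (34.8%), in 3 of the 9 promoters of its members called lower (33.3%) and in 14% of the 27305 promoters searched. A promoter is the 250 bases before and 50 after a gene's start, and a match describes letters in that window only. The forkhead motif GTAAACA stood in 5 of 33 promoters of the FOXO list (15.2%). It stood in 1 of the 11 of its members called lower (9.09%) and in 3.41% of all promoters. IRS2, INSR, CITED2, CCNG2, MXI1 and KLHL24 had none in the 250 bases before the start, the only part looked up for single genes. The ATF4 element TGATGCAAT stood in 1 of 31 promoters of the amino acid list (3.23%), in 0 of the 11 of its members called higher and in 0.264% of all promoters.

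CEMIP, a hyaluronan-binding protein needed for hyaluronan breakdown, was lower in every H1047R-insulin library than in any control. It lies at hg38 chr15:80779343-80951776 on the plus strand (ENSG00000103888.17). Its level was 373, 371 and 383 CPM in vehicle cells and 129, 124 and 154 CPM in H1047R-insulin cells. The fall was 1.47 ± 0.06 (edgeR adjusted p = 9.1e-17). It was 1.46 without vehicle 3 and 1.36 ± 0.10 with the class term (adjusted p = 1.7e-09). Insulin alone brought CEMIP to 115, 108 and 104 CPM, and H1047R alone left it at 365, 346 and 371 CPM. Among insulin-treated cells CEMIP was higher with H1047R than with empty vector, by 0.31 ± 0.06 (edgeR adjusted p = 0.011). Cells with the non-targeting siRNA had 257 ± 10.6 CPM (SD, n = 3).

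CEMIP is a member of the extracellular matrix list. Of 93 members measured, 32 fell and 2 rose (median -0.09), with 31 and 2 without vehicle 3 and 14 and 1 with the class term. The shares are 34.4% lower and 2.15% higher, against 4.82% and 2.92% of all genes tested. The study drew a matrix theme in part from RSAD2 siRNA against control cells, which involves the vehicle libraries used here. The list is therefore not independent evidence of its direction. CD44, the hyaluronan receptor, fell from 1789, 1776 and 1738 CPM to 1123, 1102 and 1167 CPM, by 0.64 ± 0.04 (edgeR adjusted p = 3.4e-13). HAS3, a hyaluronan synthase, rose by 0.72 ± 0.17 (edgeR adjusted p = 0.0057) at a low level of 2.26 to 4.89 CPM.

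Of 10 inhibitors of proteases 6 fell and none rose, also without vehicle 3, and 4 fell with the class term. TFPI2 stood at 536, 528 and 515 CPM in vehicle cells and at 252, 262 and 283 CPM in H1047R-insulin cells, a fall of 0.99 ± 0.05 (edgeR adjusted p = 3.4e-13). With the non-targeting siRNA, empty vector and vehicle TFPI2 had 206 ± 4.28 CPM (SD, n = 3). SERPINB2 fell by 0.93 ± 0.10 and SERPINE2 by 0.47 ± 0.04. Of 12 proteases 5 fell (2 with the class term), with MMP1, an interstitial collagenase, down by 1.28 ± 0.21 and the plasminogen activator PLAU by 0.38 ± 0.06. Of 12 integrins 8 fell, 6 without vehicle 3 and 1 with the class term. Of 22 collagens and collagen enzymes 7 fell, 8 without vehicle 3 and 2 with the class term. The collagen COL8A1 fell by 0.71 ± 0.07 and the cross-linking enzyme LOX by 0.44 ± 0.04. TNC, which encodes tenascin C, rose by 0.34 ± 0.05 (edgeR adjusted p = 7.3e-05).

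Of 13 Hedgehog pathway genes 5 fell (38.5%, against 4.82% of all genes tested) and none rose. The number lower was 4 without vehicle 3 and 1 with the class term. HHIP, which binds and blocks Hedgehog ligands, went from 24.5, 22 and 20.1 CPM to 7.22, 6.3 and 8.5 CPM, by -1.57 ± 0.14 (edgeR adjusted p = 6.5e-09). Cells with the non-targeting siRNA, empty vector and vehicle had 7.29 ± 1.23 CPM (SD, n = 3). With the class term the fall of HHIP was 0.95 ± 0.33 and was not called (adjusted p = 0.32). GAS1, a co-receptor, fell by 0.71 ± 0.07 and kept its call there, with a fall of 0.93 (adjusted p = 4.1e-05). Of 39 inflammatory mediators 8 fell (20.5%) and 2 rose (5.13%, against 2.92% of all genes tested), the same numbers as without vehicle 3. With the class term 2 fell and 1 rose. CXCL8, a neutrophil chemokine, fell by 0.81 ± 0.15, the pentraxin PTX3 by 0.67 ± 0.07 and TNFRSF11B, the RANK ligand decoy receptor, by 0.72 ± 0.05 (edgeR adjusted p = 0.00056, 6.7e-08 and 8.5e-12). PTX3 and TNFRSF11B averaged 30.9 and 130 CPM in cells with the non-targeting siRNA, empty vector and vehicle. Their means were 85.7 and 243 CPM in vehicle cells and 53.6 and 147 CPM in H1047R-insulin cells. CXCL12 was one of the risers, at 0.34 ± 0.07.

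A list of 32 lysosome genes and 3 factors of the TFEB family had 8 of 35 members lower and 2 higher. These are 22.9% and 5.71%, against 4.82% lower and 2.92% higher of all genes tested. All 8 falls were among the 32 lysosome genes. Without vehicle 3 the counts were 7 and 2. The number lower was 4 without H1047R-insulin 3 and 1 with the class term, and 1 was higher without H1047R-insulin 1. The cathepsins CTSF and CTSB fell by 0.43 ± 0.07 and 0.32 ± 0.05, and TFEB itself rose by 0.66 ± 0.16 (edgeR adjusted p = 8.1e-05, 8.6e-05 and 0.0091). In the list of glycolysis and hypoxia genes 6 of 40 fell (15%) and 1 rose (2.5%). Without vehicle 3, 8 fell, with DESeq2 10, and with the class term 1. The glucose transporter SLC2A3 fell by 0.35 ± 0.05 and the hypoxia-induced NDRG1 by 0.42 ± 0.06 (edgeR adjusted p = 4.8e-05 for both).

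In the amino acid response, which the factor ATF4 drives, 15 of 40 measured genes rose, 3 fell and 22 were not called (median 0.15), with 13 and 1 without vehicle 3 and 3 and none with the class term, SLC3A2 and PSAT1 among them. The shares are 37.5% higher and 7.5% lower, against 2.92% and 4.82% of all genes tested. Leaving out any 1 of the 6 libraries left 1 lower. SLC3A2, the heavy chain of amino acid exchangers, stood at 75.4, 77.3 and 78 CPM in vehicle cells and at 125, 118 and 121 CPM in H1047R-insulin cells. The gap is wide against the spread in either group, and the rise was 0.66 ± 0.05 (edgeR adjusted p = 4.9e-10). Its partner subunits SLC7A11 and SLC7A5 rose by 0.37 ± 0.06 and 0.35 ± 0.06. PSAT1, of serine synthesis, rose by 0.54 ± 0.05, the factor ATF3 by 0.64 ± 0.09, and CHAC1, which degrades glutathione, by 1.01 ± 0.15 (edgeR adjusted p = 6.8e-09, 1.7e-05 and 2.4e-05).

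Of 30 measured targets of p53, 17 rose and 1 fell (median 0.26), with 14 and 1 without vehicle 3 and 3 and none with the class term, MDM2 and CDKN1A among them. The shares are 56.7% higher and 3.33% lower, against 2.92% and 4.82% of all genes tested. MDM2, a ubiquitin ligase that limits p53, went from 332, 302 and 288 CPM to 427, 469 and 452 CPM, by 0.55 ± 0.05 (edgeR adjusted p = 6.8e-09). CDKN1A, an inhibitor of cyclin-dependent kinases, went from 422, 452 and 419 CPM to 617, 579 and 604 CPM, by 0.48 ± 0.06 (edgeR adjusted p = 8.2e-07). In both genes the lowest treated library exceeds the highest control. Cells with the non-targeting siRNA, empty vector and vehicle had 142 ± 3.92 CPM of MDM2 and 189 ± 7.49 CPM of CDKN1A (SD, n = 3). PLK2 was the member that fell, by 0.28 ± 0.05.

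Sterol and fatty acid synthesis had 6 of 44 members higher and 1 lower, the same without vehicle 3, and 1 and none with the class term. The shares are 13.6% higher and 2.27% lower, against 2.92% and 4.82% of all genes tested. ME1, the malic enzyme, rose by 0.35 ± 0.07 and the fatty acid synthase FASN by 0.26 ± 0.07 (edgeR adjusted p = 0.0026 and 0.018).

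**Figure D3:**
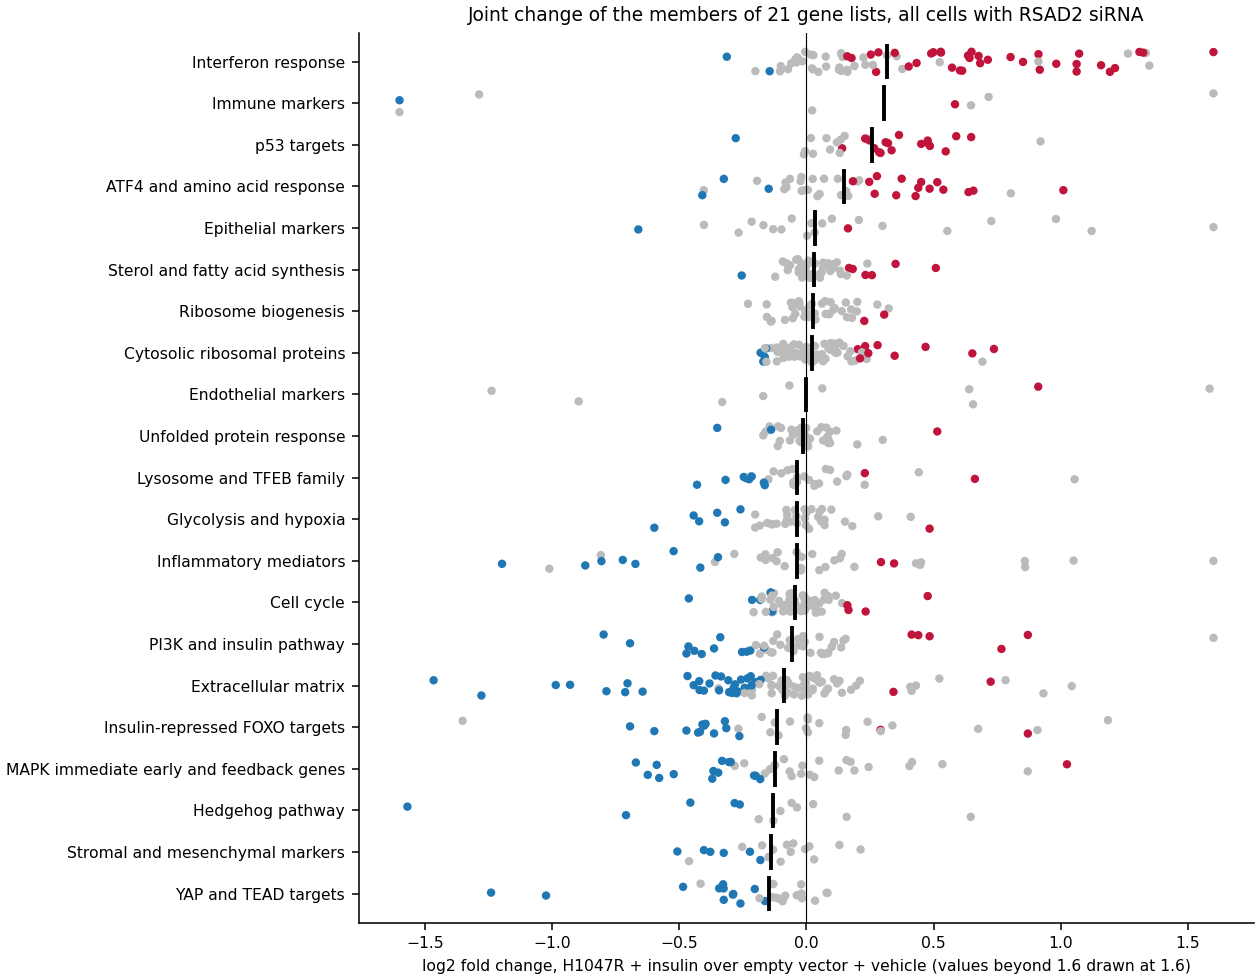
Joint log2 fold change (horizontal axis) of the measured members of 21 gene lists (vertical axis, ordered by median); red points were called higher, blue points lower, grey points were not called, and the black bar is the median of the list. Interferon response, p53 and ATF4 lists lie to the right with 35, 17 and 15 members called higher. The list of YAP and TEAD targets, with its 6 factors, lies to the left with 13 called lower and none higher.

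Interferon-stimulated genes gave the largest number of rises of any list. By share the p53 targets led, 56.7% against 46.7% here and 2.92% of all genes tested. Of 75 measured, 35 rose and 2 fell (median 0.32), with 31 and 1 without vehicle 3 and 17 and none with the class term. The number lower was also 1 without vehicle 1, H1047R-insulin 2 or H1047R-insulin 3. The study drew an interferon and viral response theme from gene sets whose definition also used the H1047R-insulin cells with RSAD2 siRNA. This list too is therefore not independent evidence of its direction, and RSAD2 is one of its members. The antiviral effectors held most of the rises. Of 38 measured, 25 rose and none fell (median 0.66), with 24 and none without vehicle 3 and 16 and none with the class term.

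OASL, an OAS-like protein that enhances RNA sensing, stood at 22.1, 24.6 and 21 CPM in vehicle cells and at 52.9, 42.6 and 45.7 CPM in H1047R-insulin cells. It rose by 1.06 ± 0.13 (edgeR adjusted p = 9.1e-07), and by 1.15 ± 0.26 with the class term (adjusted p = 0.022). IFI44 went from 9.51, 9.99 and 7.08 CPM to 19.7, 22 and 20 CPM, by 1.21 ± 0.11 (edgeR adjusted p = 9e-09). Neither gene has overlapping groups. MX1, a GTPase that blocks incoming viruses, stood at 26.4, 49.9 and 25.2 CPM in vehicle cells and at 70.5, 65.2 and 74.8 CPM in H1047R-insulin cells, a rise of 1.06 ± 0.16 (edgeR adjusted p = 4.8e-05). Vehicle 2 had the highest control level of MX1, as it had of OAS1, OAS2, IFI6 and ISG15, and lay below every treated library in each of these genes.

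The ubiquitin-like modifier ISG15 rose by 0.98 ± 0.15 (edgeR adjusted p = 4.5e-05) but was not called with the class term (0.72 ± 0.29, adjusted p = 0.46). OAS2, a synthase of 2'-5' oligoadenylates, rose by 1.32 ± 0.19, and IFIT1, which binds foreign RNA, by 0.65 ± 0.08 (edgeR adjusted p = 1.3e-05 and 6.7e-07). The largest log2 rise among effectors, 2.16 ± 0.36 for IFI44L, came from 0.486 to 1.04 CPM in vehicle cells and 2.75 to 3.48 CPM in H1047R-insulin cells.

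Of 9 sensors of foreign nucleic acid 5 rose and none fell, with 4 higher without vehicle 3 and 1 with the class term. DDX60, a helicase of the RIG-I pathway, had 47.4, 54.1 and 38 CPM in vehicle cells and 85.2, 83.8 and 82.4 CPM in H1047R-insulin cells, a rise of 0.85 ± 0.08 (edgeR adjusted p = 9e-09). It was 0.88 ± 0.15 with the class term (adjusted p = 0.0015). RIGI itself rose by 0.60 ± 0.09 and IFIH1, the sensor MDA5, by 0.53 ± 0.09. Signalling genes were mixed, 2 of 15 higher and 2 lower, with 1 and 1 without vehicle 3 and none in either direction with the class term. The kinase JAK1 fell by 0.14 ± 0.04 (edgeR adjusted p = 0.022) without a call when vehicle 3 was left out (adjusted p = 0.086). Of 13 antigen presentation genes 3 rose, 2 without vehicle 3 and none with the class term, among them the peptide transporter TAP1 at 0.35 ± 0.07.

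The promoters of 8 genes called higher in this list were looked up, in the 250 bases before the start only. The 5 with a match to the motif there are shown. Capitals mark GAAANNGAA or its reverse complement, the core of the interferon-stimulated response element, where N is any base and neighbouring matches may overlap. The stretches come from RefSeq promoters of GRCh38.p14.
IFI44 (chr1:78649742-78649788, plus strand): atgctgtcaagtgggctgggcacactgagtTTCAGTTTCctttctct
IFIT1 (chr10:89392478-89392559, plus strand): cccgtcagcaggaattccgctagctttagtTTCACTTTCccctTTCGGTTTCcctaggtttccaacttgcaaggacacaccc
ISG15 (chr1:1013354-1013434, plus strand): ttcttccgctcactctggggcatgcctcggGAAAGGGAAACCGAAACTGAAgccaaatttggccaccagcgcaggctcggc
DDX60 (chr4:168318767-168318870, minus strand): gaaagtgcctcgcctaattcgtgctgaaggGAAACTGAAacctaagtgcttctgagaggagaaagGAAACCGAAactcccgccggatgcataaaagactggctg
BST2 (chr19:17405716-17405790, minus strand): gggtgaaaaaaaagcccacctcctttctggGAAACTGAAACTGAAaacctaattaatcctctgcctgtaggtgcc
ISG15 has 3 matches, IFIT1, DDX60 and BST2 have 2 each and IFI44 has 1. The core stood in 36 of 58 promoters of the list (62.1%), in 20 of the 27 of its members called higher (74.1%) and in 8.29% of all 27305 promoters. In MX1, HERC6 and XAF1, the others looked up, the 250 bases before the start hold no match. The shares also cover the 50 bases after it. BST2, which tethers budding virions, rose by 1.31 ± 0.19 (edgeR adjusted p = 2.7e-05).

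Each library was placed on the scale of 33 antiviral effectors that had at least 1 CPM on average in vehicle cells. The median log2 level over the vehicle mean was -0.108, 0.198 and -0.155 in the vehicle libraries and 0.64, 0.644 and 0.583 in the H1047R-insulin libraries. It was 0.191, 0.09 and -0.029 with insulin alone and 0.398, 0.581 and 0.309 with H1047R alone. The libraries with H1047R lie above all those without it. The empty-vector insulin library of the high wrong-strand class is the third of its group, and it lies lowest of the 3.

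**Figure D4:**
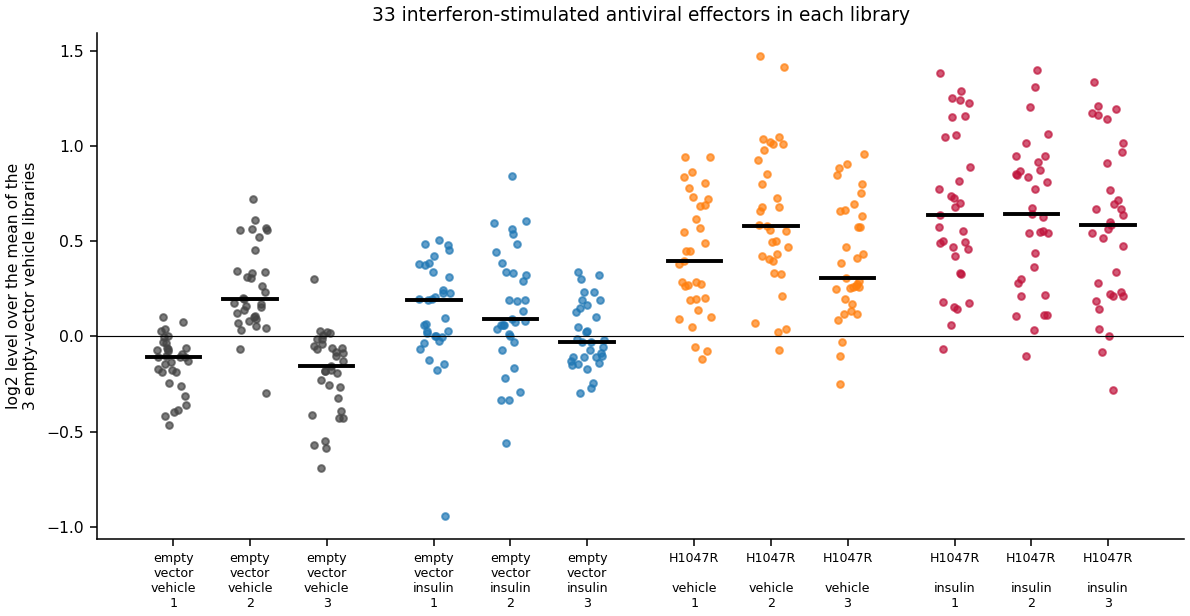
Log2 level of 33 interferon-stimulated antiviral effectors over the mean of the 3 empty-vector vehicle libraries (vertical axis) in each of the 12 libraries with RSAD2 siRNA (horizontal axis); points are genes and black bars the median of a library. Medians run from -0.155 to 0.198 without H1047R and from 0.309 to 0.644 with it.

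The other lists moved little. Of 65 cell cycle genes 4 rose (6.15%, against 2.92% of all genes tested) and 5 fell (7.69%, against 4.82%). The counts were 4 and 12 with DESeq2, and 1 and 1 with the class term. Without vehicle 3 the number lower was 4, without H1047R-insulin 1 or 3 it was 2 or 3, and without any of those 2 or of the vehicle libraries the number higher was 2. CDKN2B, a CDK inhibitor, fell by 0.46 ± 0.05 and the mitotic cyclin CCNB1 rose by 0.23 ± 0.04 (edgeR adjusted p = 1.4e-07 and 0.00064). Of 38 unfolded protein response genes 1 rose (2.63%), the stress factor DDIT3 at 0.51 ± 0.10, and 2 fell (5.26%). DDIT3 lies opposite MARS1, a gene on the other strand with 9.63 times its counts. Without vehicle 2, vehicle 3, H1047R-insulin 2 or H1047R-insulin 3, 1 gene of this list fell, and with DESeq2 5. With the class term none was called in either direction. Of 43 ribosome biogenesis genes 2 rose (4.65%) and none fell. None was higher without vehicle 1 and 1 without vehicle 2 or any of the H1047R-insulin libraries. None of the 43 was called with the class term.

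Cytosolic ribosomal proteins were split, 9 of 77 higher (11.7%) and 4 lower (5.19%), against 2.92% and 4.82% of all genes tested. Their calls depended on single libraries. None was lower without vehicle 3, 1 or 2 without vehicle 2 or any H1047R-insulin library and 7 with DESeq2, and 3 were higher without vehicle 1, H1047R-insulin 1 or H1047R-insulin 3. With the class term none was called in either direction. RPL26 stood at 23.8, 25.5 and 24 CPM in vehicle cells and at 38.2, 36 and 46.9 CPM in H1047R-insulin cells, a rise of 0.74 ± 0.13 (edgeR adjusted p = 0.00035). Among the empty-vector insulin libraries it had 25.2, 23.2 and 43.9 CPM, the last in the library of the high wrong-strand class. Its log2 fold change was -0.12 ± 0.15 with the class term.

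The same pattern ran through several of the largest rises. BEST1, a chloride channel gene that overlaps FTH1 on the other strand with 265 times its counts, had 2.21, 3.61 and 2.43 CPM in vehicle cells and 11.4, 10.2 and 16.3 CPM in H1047R-insulin cells. The rise was 2.23 ± 0.28 (edgeR adjusted p = 1.7e-06), but the empty-vector insulin libraries had 3.38, 2.71 and 10.8 CPM, and with the class term it was 0.41 ± 0.31 (adjusted p = 0.77). SNX32 lies opposite CFL1, JSRP1 opposite OAZ1 and ZACN opposite EXOC7, with 453, 255 and 259 times the counts. Their rises of 1.77, 1.66 and 1.46 became -0.04, -0.30 and -0.66 with the class term. GABARAP and LDHB, which have no such neighbour, rose by 1.33 ± 0.19 and 1.11 ± 0.16 and stood at 0.18 and 0.24 with the class term, neither called.

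**Figure D5:**
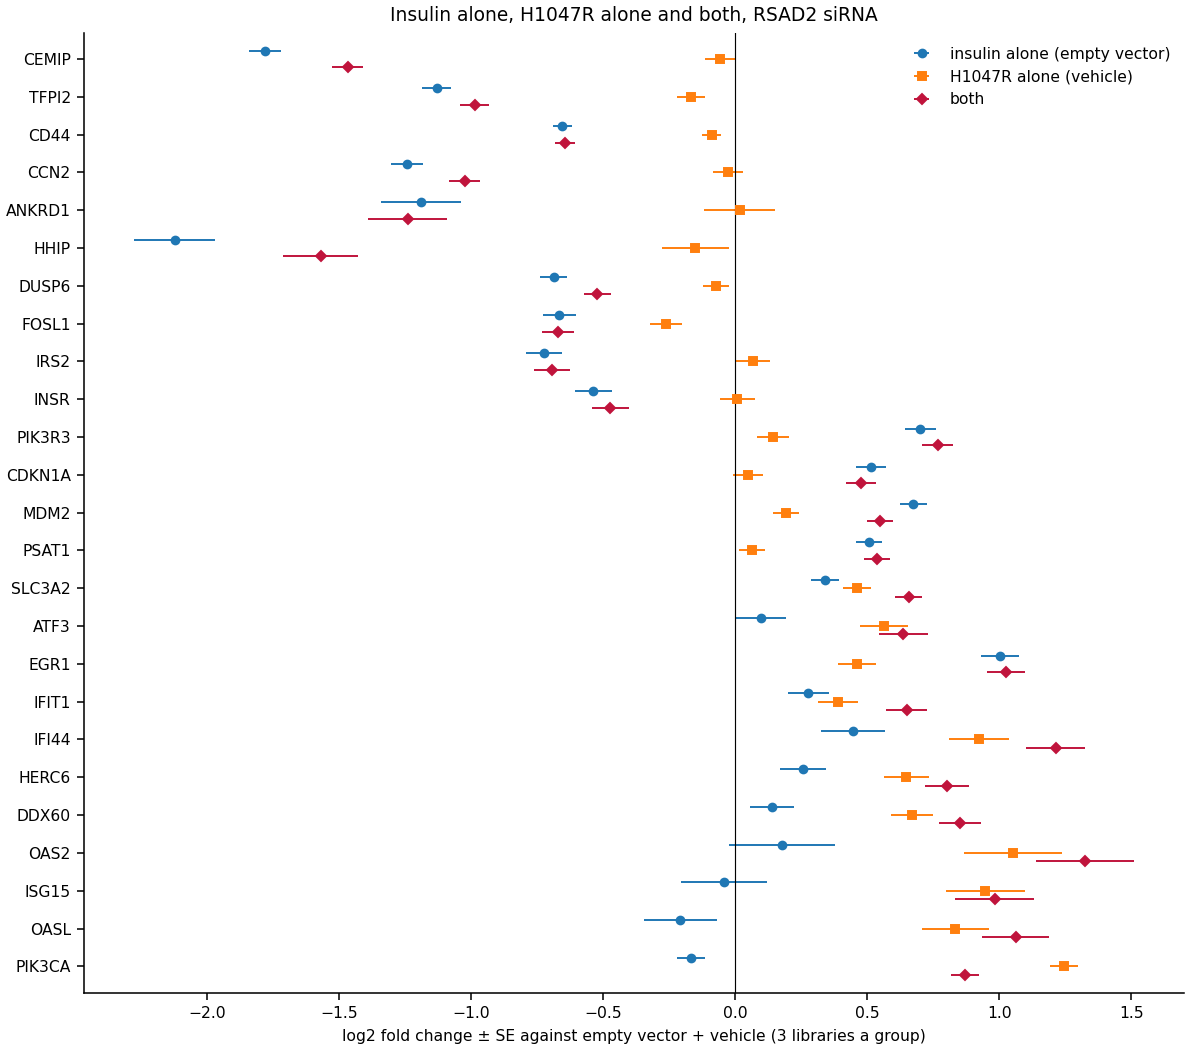
Log2 fold change with SE (horizontal axis) of 25 genes against empty vector with vehicle, for insulin alone (blue circles), H1047R alone (orange squares) and both (red diamonds), 3 libraries a group. For CEMIP, CCN2 and IRS2 the red point lies closer to the blue than to the orange one, and for ISG15 and DDX60 closer to the orange one. In DDX60, SLC3A2 and IFIT1 the red point also lies beyond both others.

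The single steps are given beside the joint change. They carry the same limit, since all H1047R vehicle libraries are of the high wrong-strand class and all vehicle libraries of the low one, and insulin alone mixes 2 low libraries with 1 high one. These steps share libraries with the joint comparison, so their values are given side by side only. CEMIP changed by -1.78 with insulin alone and -0.06 with H1047R alone, against -1.47 with both. CCN2 changed by -1.24, -0.03 and -1.02 in the same order, and IRS2 by -0.72, 0.07 and -0.69. PIK3R3 had 0.70, 0.14 and 0.77. In the interferon group the order was turned, with ISG15 at -0.04, 0.95 and 0.98, OASL at -0.21, 0.83 and 1.06 and DDX60 at 0.14, 0.67 and 0.85. SLC3A2 had 0.34, 0.46 and 0.66, and IFIT1 0.28, 0.39 and 0.65. Medians over the 38 antiviral effectors were 0.10 with insulin alone, 0.53 with H1047R alone and 0.66 with both. Within the high class, H1047R with insulin against the 1 empty-vector insulin library gave a median of 0.65 over the 38 effectors. With 1 library on that side only the sizes are given. That step was 1.33 for OASL, 0.73 for DDX60 and 0.85 for ISG15. Within the low class, insulin alone gave -1.76 ± 0.07 for CEMIP and -1.23 ± 0.07 for CCN2. Over the 30 genes of the YAP and TEAD list the medians with all libraries were -0.16 with insulin alone, -0.03 with H1047R alone and -0.15 with both.

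The departure of the joint change from the sum of both steps was tested as an interaction. No gene passed (0% of 23184, edgeR smallest adjusted p = 0.493), and none with DESeq2. At an unadjusted p of 0.05 edgeR gave 1611 genes and DESeq2 1175. The smallest p values belonged to MALAT1, a nuclear noncoding RNA at -0.56, CTXN1 at 0.94 and MDM2 at -0.32, each with an edgeR adjusted p of 0.493. CEMIP, at 0.37 with the same adjusted p, fell less with both than the sum of the steps, and this departure was not called. MALAT1 stood at 534, 408 and 393 CPM in vehicle cells, 540, 664 and 622 CPM with insulin, 591, 504 and 495 CPM with H1047R and 479, 513 and 484 CPM with both. Vehicle 1 overlaps the treated libraries there.

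Cell type markers were read as a check of the line. KRT8 stood at 849 to 911 CPM in vehicle cells and 892 to 962 CPM in H1047R-insulin cells, and KRT18 at 615 to 673 and 613 to 675 CPM, whereas the epithelial markers EPCAM and CDH1 stayed below 1 CPM. VIM, a mesenchymal filament, had 1903, 2003 and 1993 CPM in vehicle cells, 1721, 1647 and 1689 CPM in H1047R-insulin cells, and fell by 0.22 ± 0.04 (edgeR adjusted p = 0.00036). Of 20 stromal and mesenchymal markers 6 fell (30%, against 4.82% of all genes tested) and none rose. Their summed level was 7819 to 7894 CPM in vehicle cells and 7039 to 7526 CPM in H1047R-insulin cells. Of 21 epithelial markers 1 rose, a call lost without vehicle 1 or any H1047R-insulin library, and CLDN1 fell by 0.66 ± 0.06, with sums of 2280 to 2399 and 2312 to 2475 CPM. Endothelial markers summed to 25.7 to 26.9 and 25.2 to 27.4 CPM, with 1 of 10 higher and none without vehicle 3 or H1047R-insulin 1. Immune markers summed to 5.08 to 12.5 and 5.81 to 6.82 CPM, and 4 of the 12 were too low to test. Of the 8 tested 1 was called in each direction, and neither was without vehicle 3. The leukocyte antigen PTPRC had 1.35, 0.884 and 9.03 CPM in vehicle cells and 0.726 to 0.9 CPM in H1047R-insulin cells, and its difference of -2.15 ± 0.52 rested on vehicle 3, since without it the value was -0.41 (edgeR adjusted p = 0.64). The part of any of these cell types in the results above was not tested.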

How the data were processed

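The 15 libraries of the established line 12Z were prepared by the authors from poly(A) RNA (500 ng input) and sequenced in 50 bp pairs. Trimming used cutadapt through Trim Galore, FastQC served as quality control, and STAR mapped the reads to hg38. STAR's raw, unnormalised counts per gene were deposited by the authors for every library. The annotation release they name carries a mouse number. The reverse-stranded counts were used, and the forward-strand counts only for the wrong-strand share. Of 60617 identifiers 60357 matched GENCODE 44, the source of symbols and coordinates. The 4 summary entries of each file were kept apart, with unmapped reads at 3.97 to 8.31%.

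The minimum for testing was an average of 1 count over the libraries. A single model of all 15 libraries (16.1 to 39.7 M gene counts each) had a coefficient for every group, TMM factors and 10 residual degrees of freedom. It was tested with the quasi-likelihood F test of edgeR 4.0.16 under R 4.3.3. Values are log2 fold changes ± SE and n = 3 libraries a group. The methods state 3 independent experiments, but the labels do not tie libraries to them, so p values cover the spread between these libraries. Within a group no pair of libraries agreed within sampling noise (chi-square per degree of freedom 3.34 to 6.52).

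The comparison, its gene lists (21 lists, 829 symbols, 810 tested) and motifs were chosen with earlier results of these data known. Named genes are PIK3CA, CEMIP, RSAD2, the 15 largest rises and 15 largest falls among protein-coding genes called with and without vehicle 3, whose groups are separate in CPM and whose mean is 1 CPM or more, the 4 members of each list with the smallest p, each called PI3K member and the 3 smallest interaction p values. The text gives those that matter, and a few list members beyond the rule, chosen after their values were seen. The promoter motifs searched were GGAATG (TEAD), GTAAACA (forkhead), CACGTG (E-box), TGACTCA (AP-1), CACCCCAC (sterol), TGATGCAAT (ATF4) and, added after the data were seen, GAAANNGAA. DESeq2 1.42.0 was an alternative. The class term, the class split of the steps and the removal of genes under an opposite-strand gene were added after the data were seen. Scripts were tested on simulated data. Some genes are not reported here.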

Additional observations from a re-analysis of the deposited data

Results flagged for a closer look

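The forward-strand counts served for the wrong-strand share and the class drawn from it, and were not compared gene by gene. They held more signal in the treated libraries than in their controls. The median forward-strand share over 1237 genes averaged 0.782 ± 0.222% (SD, n = 3) in the H1047R-insulin libraries and 0.224 ± 0.0212% in the empty-vector vehicle libraries, with no overlap. It was 0.749 ± 0.0354% with H1047R alone, and 0.692% in 1 of the 3 empty-vector insulin libraries against 0.112 and 0.228% in the others. Rises of genes opposite an abundant gene, such as BEST1 and SNX32, moved with this share. Whether it came from library preparation was not tested, and it cannot be told apart from the treatment within the 6 compared libraries.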

How the results depend on the processing

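The number of genes called (1794, 677 higher and 1117 lower) was 149, 47 and 102 with the term for the wrong-strand class, and 429, 110 and 319 at an adjusted p of 0.001. Leaving out each library in turn gave 975 to 1503 genes, 312 to 510 higher and 663 to 1039 lower, with the lowest counts without H1047R-insulin 3. The counts higher were also more than 1.5 times lower without vehicle 1 (447), H1047R-insulin 1 (445) and H1047R-insulin 2 (408). DESeq2 (1924), RLE size factors (1816), filterByExpr (1900), no filter (2125), unstranded counts (1642) and only the compared groups (2110) stayed within 1.5 times, as did the removal of vehicle 3 with only those groups (2198) and of genes under an opposite-strand gene (1684). The interaction, 0 genes, gave 81 without a filter and 0 to 1 with a library left out, the 1 without vehicle 1. Of 104 named genes called, 104 kept direction and call with DESeq2, 39 with the class term and 96 without vehicle 3. With the class term SNX32 (-0.036), RPL26 (-0.124), ZACN (-0.655), JSRP1 (-0.297) and RPS28 (-0.050) reversed, as did ZACN (-0.239) and JSRP1 (-0.681) with unstranded counts. The cause was not tested. Same-numbered libraries did not deviate together (r = -0.0439, -0.0109 and 0.0041), against -0.0324 to 0.0563 for the other pairs. With 3 libraries a group these values cannot tell whether same-numbered libraries share an experiment. With the replicate block 1612 genes were called over 12 libraries (569 higher, 1043 lower) and 2647 over the 6 compared (984 and 1663). On simulated data the fit of this comparison recovered 53.7% of genes changed 1.5-fold and 58.5% of those changed 2-fold (22645 genes), and 8.33% of its calls were false.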

Other observations

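Several abundant genes outside the lists fell with clear separation, and TNFRSF9, at a low level, rose. All were chosen after their values were seen. The fit with the term for the wrong-strand class is given for DKK1 and SFRP1 only. DKK1, a secreted inhibitor of Wnt signalling, stood at 532, 532 and 540 CPM in vehicle cells and at 340, 359 and 382 CPM in H1047R-insulin cells. It fell by 0.57 ± 0.05 (edgeR adjusted p = 6.1e-09), and by 0.78 ± 0.08 with the class term (adjusted p = 3.3e-07). SFRP1, another secreted Wnt antagonist, fell by 0.39 ± 0.04 and by 0.33 ± 0.06 with the class term (adjusted p = 0.0052).

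NPY, which encodes neuropeptide Y, went from 252, 265 and 271 CPM to 158, 142 and 160 CPM, a fall of 0.78 ± 0.05 (edgeR adjusted p = 9.8e-12). GPRC5A, an orphan receptor that retinoic acid induces, fell by 0.69 ± 0.05 and ALDH1A3, which makes retinoic acid, by 0.47 ± 0.04 (edgeR adjusted p = 9.8e-12 and 4.4e-10). GAS6, the ligand of the receptor AXL, fell by 0.50 ± 0.06, beside the fall of AXL. TNFRSF9, a receptor of the tumour necrosis factor family, rose by 1.31 ± 0.19 from 2.04, 2.77 and 2.67 CPM to 4.55, 5.74 and 7.92 CPM (edgeR adjusted p = 1.5e-05).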
